A study of Mus musculus with 4 samples.

Results

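The comparison described here sets the liver of LKO mice fed a high-fat diet (HFD) against the liver of F/F mice fed the same diet, by RNA level. Its 2 samples were chosen by genotype and diet from the 4 samples of the series, without reference to any measured value. F/F mice carried floxed Lpiat1 alleles, Lpiat1 being another name of Mboat7, and no Cre. LKO mice were Alb-Cre;Lpiat1F/F, so that the albumin promoter drove Cre in hepatocytes and other liver cells kept the gene. Both groups were male mice on a C57BL/6 background, 24 weeks old, that had eaten HFD-60 for 18 weeks from 6 weeks of age. The other 2 samples, F/F and LKO livers after 18 weeks on chow (CE2), share no array with the HFD pair, and their values stand beside it as values.

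Each genotype and diet had 1 array, and it is not stated if that RNA came from a single animal or a pool. No difference between genotypes therefore has a replicate check, and none has a p-value. The labels and the published methods name different RNA kits and different housing temperatures.

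MBOAT7 is an acyltransferase that attaches arachidonic acid to lysophosphatidylinositol, and so keeps the phosphatidylinositol of membranes rich in that fatty acid. Hepatocytes carry most metabolic work of the liver: they make, store, burn and export lipid, set blood glucose, detoxify ammonia, steroids and drugs, and secrete most plasma proteins. Many of these functions are divided along the lobule between the portal and the central vein, and many follow the daily clock and growth hormone.

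Values are background-subtracted spot intensities as the scanner software gave them. In pairs of signals F/F stands before LKO. Each array was scaled by its 75th percentile over non-control spots, which was 222 and 213 on chow and 263 and 296 on HFD, so a difference is not the plain ratio of the printed signals. A difference is LKO minus F/F of the scaled values on the log2 scale, on HFD unless chow is named, and it keeps its minus sign wherever a gene is said to have fallen. Between 52.96% and 56.98% of the 59305 non-control spots of an array were well above background by the scanner software's flag. A gene stood for by its brightest probe had a value when that probe was well above background on at least 1 of both HFD arrays, which held for 15528 of 23462 genes. For 851 of them only 1 array passed, and their difference is a bound ("at least"). The spread between replicate spots of an array gave a technical SD of a difference of 0.10, from 0.07 for signals of 10000 and more to 0.47 for signals under 30, and it leaves out all spread between mice.

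The probe for Mboat7 read 1102 and 861 on chow and 1181 and 1100.0 on HFD. Its difference was -0.27 on HFD and -0.30 on chow, under 1.5-fold on both diets. The files do not place the probe inside or outside the deleted stretch, so these values do not check the deletion.

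All 16 hepatocyte markers passed the background flag on each of the 4 arrays, and albumin (Alb) or Serpina1a was the brightest of them, with signals between 222615 and 231569, as liver should show. Markers of macrophages, endothelial cells and stellate cells were present too, so every value is one of whole liver, in which fewer cells of a type and less RNA per cell cannot be told apart.

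Among the 15528 genes, 7132 were higher in LKO (45.93%) and 8396 lower, and counts of list members below can be set against these. At least 1.5-fold higher in LKO were 1253 (8.07% of genes), and 944 were at least 1.5-fold lower (6.08%). At 2-fold the counts were 366 higher (2.36%) and 296 lower (1.91%). These counts depended on dim genes. A background correction that adds an offset of 50 (normexp) was run on raw median signals in place of the processed signal. With it, 94 genes were 2-fold higher and 85 lower, and 458 and 333 passed 1.5-fold. With neither filter nor floor for dim signals, 996 and 889 passed 2-fold and 2356 and 2034 passed 1.5-fold. With genes above background on both HFD arrays only, 271 were 2-fold higher and 186 lower, and 1033 and 730 passed 1.5-fold.

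Differences also followed brightness. The median over all genes was -0.03, but it was 0.04 for the 2581 genes with signals under 30 (-0.08 under normexp) and -0.18 for the 1011 genes at 10000 or more, of which 785 were lower in LKO and 226 higher. On chow the median of those brightest genes was 0.04. A list median near -0.18 was no further from 0 than that of bright genes at large, those at 10000 or more. Genes with signals from 1000 to 10000 had a median of -0.09, and some list members lie there or below. With quantile normalization, which forces 1 distribution on all arrays, the median of the brightest genes was -0.05, and list medians are given with it wherever it moved them past the technical SD or turned their sign.

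**Figure D1:**
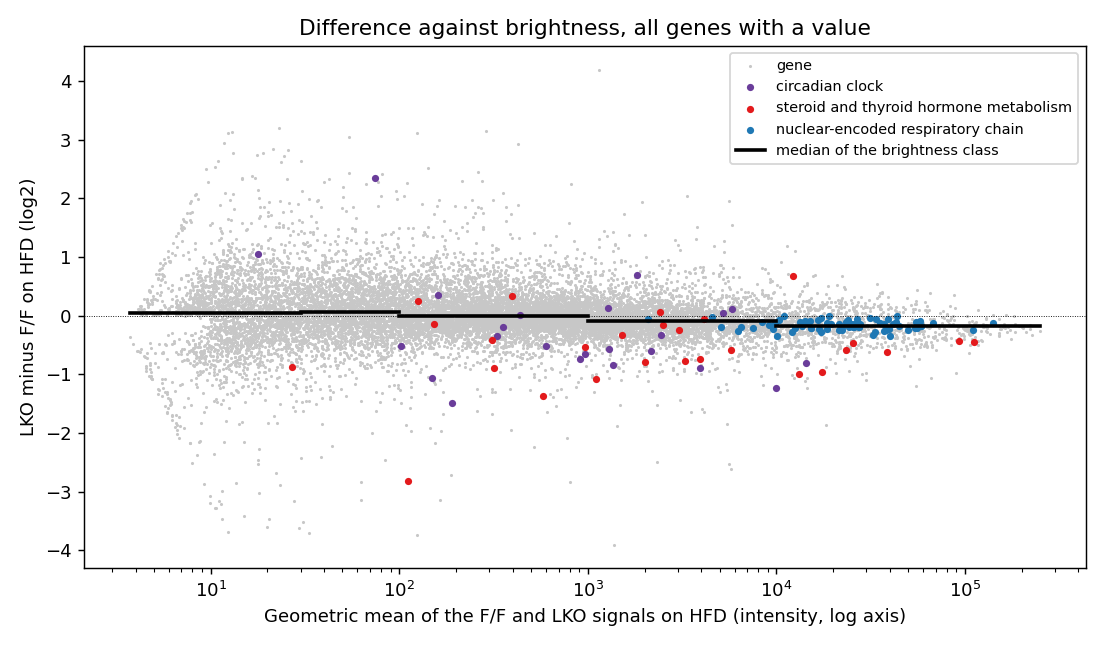
Each grey point is 1 of the 15528 genes, with the geometric mean of its F/F and LKO signals on HFD on a log axis and its LKO minus F/F difference in log2. Black bars are the medians of the 5 brightness classes, which fall from 0.04 and 0.06 in the dim classes to -0.18 in the brightest; clock and steroid genes reach below those bars, respiratory chain genes lie on the brightest 1.

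The lists cover 38 hepatocyte functions with 1446 genes, 1385 of them with a value. The median difference was below 0 in 30 lists and above 0 in 8. Steroid and thyroid hormone metabolism stood lowest at -0.54, followed by the circadian clock at -0.51 and pericentral genes at -0.37. At the other end stood fetal and injury-associated hepatocyte genes at 0.46 and the cell cycle at 0.27. On chow the list medians ran between -0.15 and 0.24, so the steroid, clock and fetal medians on HFD were further from 0 than any on chow. So were those of further lists, such as pericentral genes (-0.37), cytochromes P450 (-0.34) and amino acid breakdown (-0.30). The cell cycle median of 0.27 on HFD, or 0.17 under normexp, stood beside 0.24 on chow without normexp, a contrast that was not tested.

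**Figure D2:**
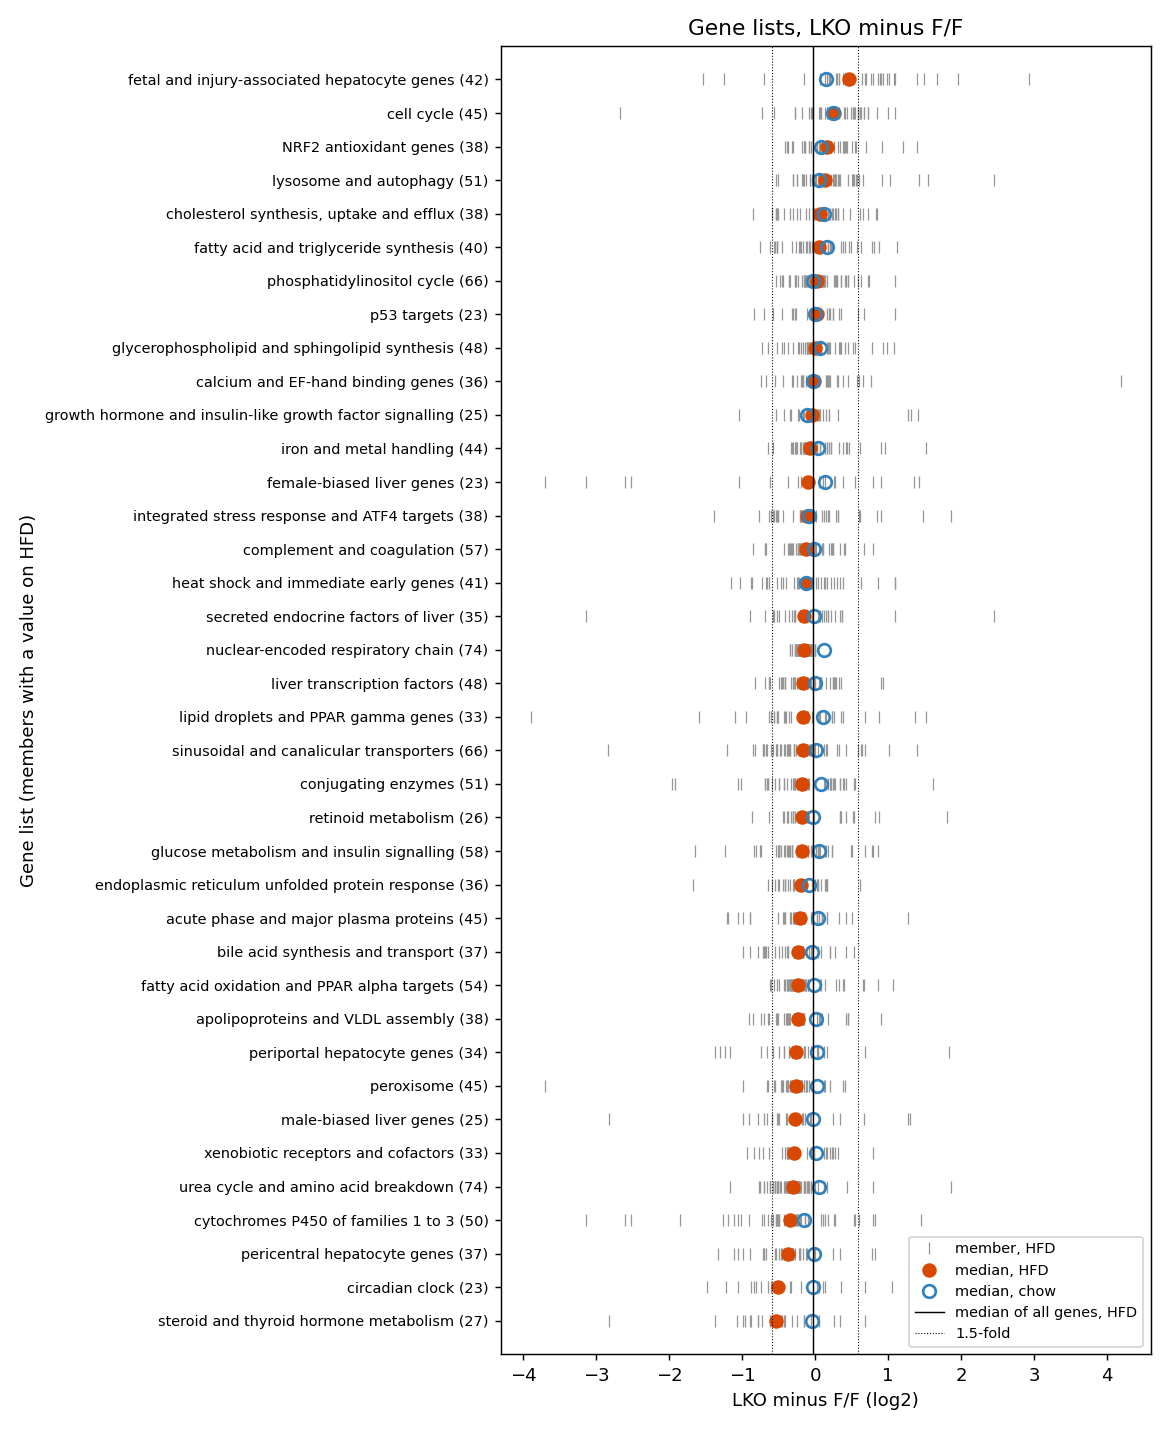
Each row is a gene list, with its number of members that have a value; grey ticks are the LKO minus F/F differences (log2) of the members on HFD, filled points their median on HFD, and open points the median on chow. Of 38 lists, 30 have an HFD median below 0, from -0.54 for steroid and thyroid hormone metabolism to 0.46 for fetal and injury-associated genes.

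Phosphatidylinositol is made from CDP-diacylglycerol by Cdipt, phosphorylated by kinases and cleaved by phospholipases C. In this cycle 39 of 66 members were higher and 27 lower in LKO, 4 were past 1.5-fold upward against 8.07% of all genes, 0 were past it downward against 6.08%, and the median was 0.03. The synthetic enzymes Cdipt and Cds2 differed by 0.08 and 0.08, about the technical SD at their brightness, and further probes of Cds2 gave 0.21 and 0.26, also under 1.5-fold. Mboat1, an acyltransferase of the same protein family, was the member furthest from 0: its signals were 20.8 and 13.6 on chow and 30.6 and 73.5 on HFD, a rise of 1.10, which shrank to 0.44 under normexp. Lpcat2, which acylates lysophosphatidylcholine, rose by 0.63, and Plcb2, a phospholipase C, by 0.73 at signals of 15.3 and 28.6. The kinase Pip5k1b rose at least 1.65-fold from a signal not well above background, or by 0.01 in log2 under normexp. Most of the cycle thus stood close to the median of all genes.

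Synthesis of other glycerophospholipids and sphingolipids had a median of -0.00, a value whose sign turned under normexp (0.01) and quantile normalization (0.03). Choline kinase (Chka), the entry to phosphatidylcholine synthesis, rose by 0.98 with signals of 359 and 210.3 on chow and 263 and 584 on HFD. Farther along the same route the cholinephosphotransferase Chpt1 fell, by -0.65, and so did the ethanolamine kinase Etnk2, by -0.72. Pemt, which makes phosphatidylcholine by methylation, differed by -0.19. Glucosylceramide synthase (Ugcg) rose by 0.78 and the glycerophosphodiesterase Gdpd1 by 1.08, while ceramide synthase Cers2 differed by -0.09.

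Fatty acid and triglyceride synthesis held changes in both directions. Acetyl-CoA carboxylase 1 (Acaca), which makes malonyl-CoA for synthesis, read 3308 and 3569 on chow and 3964 and 6890.2 on HFD, a rise of 0.63, and its mitochondrial counterpart Acacb rose by 0.77 on its brighter probe, with -0.07 on its other. Acsl4, which activates arachidonic acid, rose by 0.81, and the desaturase Scd2 by 1.12. These 4 were higher in LKO than in F/F on chow too, by 0.17, 0.82, 0.45 and 0.57. Fatty acid synthase (Fasn) differed by 0.38, Scd1 by 0.11 and ATP citrate lyase (Acly) by -0.04. In the other direction, the regulator Srebf1, which switches on this route, read 6161 and 5254 on chow and 13989 and 9339 on HFD and fell by -0.75. Thrsp, another lipogenic gene, fell by -0.62 and the triglyceride-forming Dgat2 differed by -0.55. The list median was 0.05 with 21 members higher and 19 lower. Pnpla3, a lipase of lipid droplets, rose by 0.87 at signals of only 10.8 and 22.3, or by 0.08 under normexp.

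Lipid droplet and PPAR gamma genes held wide changes in both directions. Cfd, the adipokine adipsin, was the gene most lowered of all genes measured on both arrays: its signals were 1246 and 1272 on chow and 5005 and 377 on HFD, a 14.9-fold fall on HFD against 0.09 on chow. F/F on HFD was above both chow arrays and LKO on HFD below both. Cidea, a droplet-fusion protein, read 296 and 2619 on chow and 6616 and 2456 on HFD, a fall of -1.60 on HFD where the chow difference was 3.20. Its relative Cidec and their regulator Pparg had the same opposite signs, -0.50 and -0.41 on HFD against 1.28 and 1.08 on chow. G0s2, an inhibitor of the lipase Pnpla2, fell by -0.95 and intestinal-type fatty acid binding protein Fabp2 by -1.10. The coat protein Plin2 (-0.05), the fatty acid receptor Cd36 (0.05) and Pnpla2 (0.15) lay close to 0. Raised members were Lpl, the lipase of lipoprotein triglyceride, at 446 and 463 on chow and 976 and 2828 on HFD and 1.37, Fabp5 at 2036 and 4949 on chow and 2124 and 6819.7 on HFD and 1.52, and the droplet enzyme Hsd17b13 at 0.68. Fabp5 had nearly the same LKO to F/F difference on chow, 1.34, whereas Lpl differed there by 0.11. Since Lpl and Fabp5 are also made by macrophages, whose markers were higher in LKO on HFD, the part of those cells in these values was not tested.

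Fatty acid oxidation and PPAR alpha targets had 11 members higher and 43 lower, with a median of -0.24 that quantile normalization moved to -0.11. The receptor Ppara itself fell by -0.62, at signals of 15199.6 and 11146. Carnitine palmitoyltransferase Cpt1a, which lets fatty acids into mitochondria, differed by -0.29, and ketone-forming Bdh1 fell by -0.61. A small set went up instead: the thioesterase Acot2 by 1.07, pyruvate dehydrogenase kinase Pdk4 by 0.87 and the omega-hydroxylases Cyp4a10 and Cyp4a31 by 0.65 and 0.67. Pdk4 read 1709 and 821 on chow and 428 and 878 on HFD, so F/F was the lower liver on HFD and the higher one on chow. For Acot2, Cyp4a10 and Ehhadh the chow differences were likewise negative, -0.72, -0.55 and -1.08. The 2 Cyp4a genes are close in sequence, and their probes may read each other's RNA.

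In the peroxisome list 40 of 45 members were lower, with a median of -0.26. Hao2, a hydroxy acid oxidase, read 2.27 and 1.95 on chow and 113 and 9.72 on HFD, a 13.1-fold fall that was -1.39 in log2 under normexp; LKO on HFD lay just above the lowest signal counted as above background, and neither chow array was above background. Nudt7, which breaks down coenzyme A in peroxisomes, fell by -0.98 at signals of 27620.5 and 15679. The glyoxylate enzyme Agxt and the pipecolate oxidase Pipox fell by -0.66 and -0.65, while catalase (Cat) and the transporter Abcd3 differed by -0.32 and -0.16.

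Cholesterol genes were near balance, 20 higher and 18 lower with a median of 0.07. Squalene epoxidase (Sqle), a rate-setting enzyme of synthesis, read 1034 and 1368 on chow and 1977 and 3664 on HFD and rose by 0.72. Hmgcs1 and Insig1, under the same sterol-sensitive regulator as Sqle, were not past the fold, with -0.13 and -0.43, and the sterol carrier Stard4 fell by -0.59. Abcg8, of the pair that exports sterols into bile, fell by -0.85, and its partner Abcg5 differed by -0.53. Exporters and esterifiers typical of macrophages, Abcg1 and Soat1, rose by 0.85 and 0.84, beside a rise of 0.65 in the lysosomal cholesterol carrier Npc2.

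Lipoprotein genes were lower in 28 of 38 members, with a median of -0.24 that became -0.10 under quantile normalization. The structural proteins stood near the level of bright genes at large: Apob at -0.24, Apoe at -0.17, Apoa1 at -0.16, and the assembly protein Mttp at -0.15. Apoa4, which follows dietary fat, read 6537 and 11070.1 on chow and 69676 and 46834 on HFD and fell by -0.74 on HFD, with 0.82 on chow. Apol7a, Apol9a, Apol9b and Apon fell by -0.91, -0.65, -0.63 and -0.70; Apol9a and Apol9b are near-identical genes, so which of them was read is uncertain. Phospholipid transfer protein (Pltp) rose by 0.90 and differed by 1.43 on chow.

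Bile acid genes fell at several steps, with 8 of 37 members past 1.5-fold downward against 6.08% of all genes, 0 upward against 8.07%, and a median of -0.23. Cyp7a1, the rate-limiting enzyme of the classic route, read 1274 and 411 on chow and 1472 and 834 on HFD: it fell by -0.99 on HFD and was lower on chow by -1.57. Cyp8b1, which sets the share of cholic acid, fell by -0.65, Cyp7b1 of the alternative route by -0.78, and the reductase Akr1d1 by -0.89. The co-receptor Klb, which relays the intestinal hormone that represses Cyp7a1, fell by -0.72, and so did Nr0b2, a repressor of Cyp7a1, by -0.68. Enzyme and repressor were thus both lower. Of the transporters, the importer Slc10a1 (-0.04) and the export pump Abcb11 (-0.41) were not past the fold, whereas Slco1b2 and Slco1a1 fell by -0.68 and -0.70.

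Glucose genes had a median of -0.19, which moved to -0.06 under quantile normalization. Glucose-6-phosphatase (G6pc), the last step of glucose release, read 8475 and 13171 on chow and 21036 and 10028 on HFD, a fall of -1.24 against 0.69 on chow. The gluconeogenic enzymes before it differed less, Pck1 by -0.49 and Fbp1 by -0.32, and mitochondrial Pck2 rose by 0.78. Ppp1r3g and Ppp1r3c, which bring a phosphatase to glycogen, fell by -1.64 and -0.81; the signals of Ppp1r3g were 1308 and 1118 on chow and 5890.5 and 2122 on HFD. The insulin receptor substrate Irs2 and Igfbp1, both controlled by insulin, differed by 0.06 and -0.17. The kinase Sik1 and the factor Foxo3 fell by -0.76 and -0.84.

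Amino acid breakdown was lower almost throughout: 68 of 74 members, 9 of them past 1.5-fold against 6.08% of all genes and 2 members past it upward against 8.07%, with a median of -0.30. The histidine enzymes Hal and Amdhd1 fell by -1.17 and -0.70; Hal, the first of the route, read 8153 and 5542 on chow and 7658 and 3830.3 on HFD. Tryptophan dioxygenases Tdo2 and Ido2 fell by -0.62 and -0.75, the lysine and tryptophan enzyme Gcdh by -0.71, the tyrosine enzyme Gstz1 by -0.62 and the cystathionine lyase Cth by -0.78. The urea cycle enzymes Cps1, Otc, Ass1 and Asl were not past the fold, with 0.04, -0.51, -0.09 and -0.29. Asparagine synthetase (Asns), which makes rather than breaks down an amino acid, rose by 1.86.

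Along the lobule both poles were lower. Pericentral genes had 32 of 37 members lower and a median of -0.37 (-0.25 under quantile normalization), and periportal genes 27 of 34 and -0.26 (-0.14). Defining members of each pole were not past the fold: Glul, Cyp2e1 and Cyp1a2 on the central side stood at -0.22, -0.32 and -0.27, and Cyp2f2, Gls2 and Sds on the portal side at -0.25, -0.30 and -0.30. Lgr5, a receptor that amplifies Wnt signals in hepatocytes next to the central vein, read 132 and 102 on chow and 205 and 90.9 on HFD and fell by -1.34, and the Wnt target Sp5 fell by -0.70, or -0.37 under normexp, while the Wnt target Axin2 differed by 0.24, or -0.01. On the portal side the phospholyase Etnppl and the steroid enzyme Hsd17b6 fell by -1.31 and -1.37. E-cadherin (Cdh1), which portal hepatocytes and bile duct cells carry, rose instead, at 156 and 136 on chow and 135 and 542 on HFD and 1.84.

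Cytochromes P450 of families 1 to 3, which oxidize drugs and steroids, showed 14 of 50 members past 1.5-fold downward, against 6.08% of all genes, and 9 past 2-fold downward, against 1.91%. The 4 members past 1.5-fold upward were near the share of all genes, 8.07%. Their median was -0.34. The Cyp2b genes, targets of the receptor CAR (Nr1i3), fell most: Cyp2b9 read 1855 and 1184 on chow and 13483 and 2478 on HFD, Cyp2b10 3998 and 2737 on chow and 12656 and 2472 on HFD and Cyp2b13 11.7 and 2.09 on chow and 461 and 58.4 on HFD, differences of -2.61, -2.52 and -3.15. F/F on HFD was the high sample of the 4 for all 3 probes, and LKO on HFD lay near or below F/F on chow for Cyp2b9 and Cyp2b10. These 3 genes are close in sequence, and their probes may read each other's RNA. The probes did not read alike: in LKO on chow that of Cyp2b13 was not above background, beside 1184 and 2737 for Cyp2b9 and Cyp2b10. How far each probe reads the other genes was not tested. CAR itself fell by -0.63. A block of Cyp2c genes fell too, Cyp2c37 by -1.11, Cyp2c38 by -1.27, Cyp2c50 by -1.06, Cyp2c54 by -1.01 and Cyp2c29 by -0.70, with the same reserve about which paralog was read. For Cyp2c37, signals of 47652 and 34899 on chow and 19776 and 10278 on HFD put both HFD samples below both chow samples. Cyp2d40 fell by -1.86 at signals of 33006 and 10247. Against that direction Cyp3a11, the main target of the receptor PXR (Nr1i2), rose by 0.82 with its paralog Cyp3a16 at 0.79, whereas their paralogs Cyp3a25 and Cyp3a57 fell by -0.60 and -0.65, and PXR differed by 0.24. The brightest members, Cyp2e1 and Cyp2a5, differed by -0.32 and -0.36. Cyp1a1, a target of the receptor Ahr (-0.38), fell by -1.19 at signals of 60.5 and 29.8, and Cyp1b1, expressed mainly outside hepatocytes, rose by 1.45, or 0.38 under normexp.

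Further genes of drug handling were mostly lower. Among xenobiotic receptors and cofactors the median was -0.28 (-0.17 under quantile normalization), with falls of -0.94 in aldehyde oxidase Aox3, -0.84 in Adh4 and -0.72 and -0.77 in the carboxylesterases Ces2a and Ces1e. The monooxygenase Fmo4 rose by 0.79, or 0.06 under normexp. Conjugating enzymes had a median of -0.17 (-0.06) and 10 of 51 members past 1.5-fold downward, against 6.08% of all genes, with 1 upward, against 8.07%. The sulfotransferases fell in several lines: Sult2a8 read 31828 and 27586 on chow and 19854 and 10689 on HFD and fell by -1.06, Sult1b1 by -1.02, Sult5a1 by -1.92 and Sult2a7 by -1.97, while Sult1a1 differed by 0.22. Glutathione transferases stayed nearer 0, with 0.39 for Gstm1, 0.34 for Gstp1, 0.11 for Gsta4 and a fall of -0.69 for Gstm2. The probe for Ugt1a10 rose by 1.62 and differed by 0.90 on chow; Ugt1a genes share their last exons, so it may read other forms.

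Of 66 transporters, 51 were lower, and the median was -0.17. Slc22a7, which takes organic anions and prostaglandins from blood, read 1909 and 1350.4 on chow and 2027 and 318 on HFD, a 7.17-fold fall that left LKO on HFD as the only low sample. The anion transporters Slc22a28 and Slc22a30 fell by -0.83 and -0.71, and the amino acid transporter Slc43a1 by -1.21, with 0.30 on a dimmer probe. Upward moves included the lactate transporter Slc16a1 at 0.64, the citrate importer Slc13a5 at 1.01 and signals of 59.9 and 135, and the zinc transporter Slc39a5 at 1.39, or 0.40 under normexp.

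**Figure D3:**
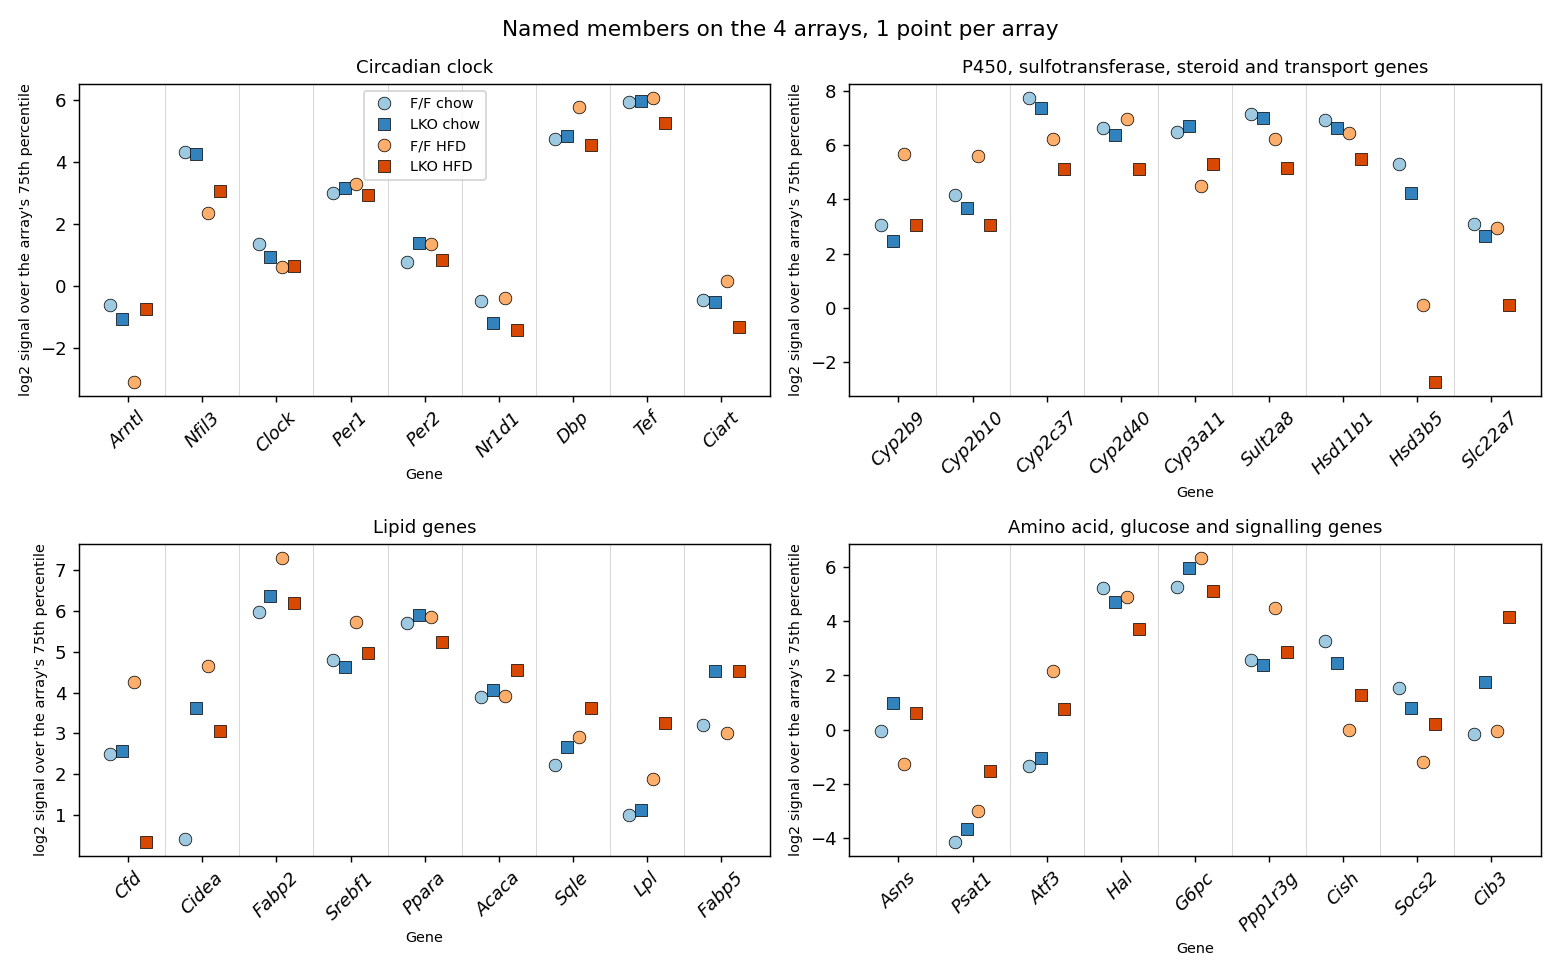
Log2 signal over the 75th percentile of the array for 36 named genes in 4 panels, with 1 point for each of the 4 arrays (circles F/F, squares LKO; blue chow, orange HFD). For Cyp2b9, Cyp2b10, Cfd and Ppp1r3g the F/F HFD point lies above the other 3, for Slc22a7 and Cfd the LKO HFD point lies below them, and for Arntl the F/F HFD point lies below them.

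Steroid and thyroid hormone metabolism had the lowest list median, -0.54, which stayed at -0.50 under quantile normalization and was -0.43 under normexp. Of 27 members, 23 were lower and 11 were past 1.5-fold downward, against 6.08% of all genes. Hsd3b5, a male-specific steroid dehydrogenase, read 8835 and 3997 on chow and 281 and 44.5 on HFD: it was far lower on HFD in both genotypes, and within HFD it fell a further 7.09-fold, against -1.09 on chow. Hsd11b1, which regenerates active glucocorticoid, fell by -0.96 at signals of 22925 and 13196, and the glucocorticoid carrier Serpina6 by -0.99. Hsd17b6, Hsd3b2, Akr1c14 and Srd5a2, which oxidize or reduce steroids, fell by -1.37, -1.08, -0.73 and -0.88, and Srd5a1 differed by -0.05. The deiodinase Dio1, which activates thyroid hormone and is itself induced by it, read 1034 and 1077 on chow and 2500.2 and 1631 on HFD and fell by -0.78. Hsd17b13 was the member that rose.

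Sex-biased liver genes depend on the pattern of growth hormone pulses. Male-biased genes had 20 of 25 members lower and a median of -0.28, yet they did not move as 1 group. Besides Hsd3b5, the hydroxylase Cyp7b1 and the transporter Slco1a1 fell, while Cyp4a12a and Cyp4a12b, near-identical omega-hydroxylases of male liver, rose by 1.30 and 1.27; the signals of Cyp4a12a were 5975 and 6837 on chow and 1735 and 4792 on HFD. Elovl3, Cyp2d9 and Mup20 differed by -0.52, -0.50 and -0.13, the last a probe that may read several Mup genes. Female-biased genes had a median of -0.10, and those that fell furthest were Hao2 and the Cyp2b genes. Others rose, Atp6v0d2 by 1.43, Nipal1 by 1.36, Ntrk2 by 0.90 and Cyp3a16 by 0.79. Of 30 female-biased members on the arrays, 7 stayed at background in both genotypes on HFD, Sult2a1, Sult3a1, Cyp3a44, Cux2, A1bg and Prom1 among them. The probes for Cyp3a41a and Cyp2a4 were bright on HFD, at 26635 and 43679 and at 42182 and 40100, and differed by 0.55 and -0.24. Which paralogs those 2 probes read was not tested.

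Growth hormone signalling itself had a median of -0.04, whose sign turned under quantile normalization (0.04) and normexp (0.01). The feedback inhibitors that STAT5 induces rose: Socs2 read 645 and 373 on chow and 115 and 344 on HFD and Cish 2122 and 1177 on chow and 258 and 722 on HFD, differences of 1.41 and 1.32. Socs3, which answers interleukins as well, read 7072 and 2097 on chow and 515 and 1398 on HFD and rose by 1.27. On chow all 3 had the opposite sign, -0.74, -0.79 and -1.70, and all 3 were lower on HFD than on chow in both genotypes. The receptor Ghr, the kinase target Stat5b and the product Igf1 differed by -0.34, -0.10 and 0.04. The prolactin receptor Prlr fell by -1.04, with -0.23 on another probe.

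Retinoid genes had a median of -0.18. Cyp26a1, which degrades retinoic acid, fell by -0.87 at signals of 528 and 322 on chow and 105 and 64.5 on HFD, and the carotenoid oxygenase Bco2 by -0.64. Dhrs9, a retinol dehydrogenase, rose at least 3.51-fold from a signal not well above background on F/F, with a value of 0.39 under normexp. Hepatocyte Rbp4 and Aldh1a1 differed by -0.28 and -0.39.

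The circadian clock had the second lowest median, -0.51, with 8 of 23 members higher and 15 lower. The median was -0.49 with quantile normalization, -0.34 with normexp and -0.34 with neither filter nor floor. The activator Arntl read 145 and 102 on chow and 31.04 and 178 on HFD, a 5.10-fold rise (1.20 in log2 under normexp); F/F on HFD was the low sample of the 4. The repressor Nfil3 rose by 0.69 with signals of 4459.9 and 4140.0 on chow and 1363 and 2468 on HFD, and the repressor Cry1 by 1.06 at signals of 11.7 and 27.3, or 0.16 under normexp. Other output and repressor genes were lower: Dbp read 6034 and 6093 on chow and 14397 and 6921 on HFD and fell by -1.22, and Ciart, Nr1d1, Noct, Usp2, Tef, Hlf, Nr1d2 and Cry2 fell by -1.48, -1.05, -0.88, -0.84, -0.80, -0.74, -0.65 and -0.61. Per1, Per2 and Per3 differed by -0.33, -0.51 and -0.51, and Clock by 0.02, with 0.59 on a dimmer probe. On chow the median was -0.03 and Arntl differed by -0.45. The hour at which the mice were killed is not stated, so a difference in clock time between both samples and a difference between genotypes cannot be told apart.

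For the measured genes of the list that hold a known clock motif, the promoters are shown, from the RefSeq table of 300-base windows on GRCm38.p6 that run from 250 bases before to 50 bases after each start. Of 25 genes in the list, 19 had a window. The E-box CACGTG, bound by CLOCK and BMAL1 (the product of Arntl), lay in windows of Ciart, Tef, Per1, Cry1 and Bhlhe41 and in 7.15% of all 32851 windows. The ROR element TAGGTCA, read by the ROR activators and by the repressors NR1D1 and NR1D2, lay in windows of Arntl and Nfil3 and in 2.61% of all. The D-box TTANGTAA, bound by DBP, TEF, HLF and NFIL3, lay in that of Per3 and in 2.32% of all. Both strands were searched, and capitals mark the matches. The windows lie at chr3:95882179-95882478 on the minus strand for Ciart, chr15:81802423-81802722 on the plus strand for Tef, chr11:69098699-69098998 on the plus strand for Per1, chr10:85185005-85185304 on the minus strand for Cry1, chr4:151044616-151044915 on the minus strand for Per3, chr7:113207261-113207560 on the plus strand for Arntl and chr13:52980990-52981289 on the minus strand for Nfil3.
Ciart: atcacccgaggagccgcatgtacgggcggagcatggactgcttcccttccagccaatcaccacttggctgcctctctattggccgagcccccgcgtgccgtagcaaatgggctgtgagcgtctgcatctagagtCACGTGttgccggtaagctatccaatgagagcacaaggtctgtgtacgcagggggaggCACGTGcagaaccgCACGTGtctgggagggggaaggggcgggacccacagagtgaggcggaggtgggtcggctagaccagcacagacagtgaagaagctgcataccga
Tef: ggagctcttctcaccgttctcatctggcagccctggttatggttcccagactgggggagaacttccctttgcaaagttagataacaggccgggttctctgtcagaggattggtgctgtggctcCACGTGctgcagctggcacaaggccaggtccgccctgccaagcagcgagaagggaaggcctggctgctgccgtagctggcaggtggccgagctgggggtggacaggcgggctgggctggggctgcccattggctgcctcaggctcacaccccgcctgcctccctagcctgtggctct
Per1: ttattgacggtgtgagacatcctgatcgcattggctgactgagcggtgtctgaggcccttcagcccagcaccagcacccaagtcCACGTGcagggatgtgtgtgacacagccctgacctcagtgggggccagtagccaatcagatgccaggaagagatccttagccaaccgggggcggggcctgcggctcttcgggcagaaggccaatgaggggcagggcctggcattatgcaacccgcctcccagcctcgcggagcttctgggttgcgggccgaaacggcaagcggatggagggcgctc
Cry1: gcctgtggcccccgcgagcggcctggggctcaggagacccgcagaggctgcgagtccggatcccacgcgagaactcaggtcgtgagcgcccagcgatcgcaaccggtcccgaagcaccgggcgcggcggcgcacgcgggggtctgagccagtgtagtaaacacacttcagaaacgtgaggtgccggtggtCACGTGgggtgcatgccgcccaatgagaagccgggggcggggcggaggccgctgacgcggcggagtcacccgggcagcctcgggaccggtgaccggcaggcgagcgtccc
Per3: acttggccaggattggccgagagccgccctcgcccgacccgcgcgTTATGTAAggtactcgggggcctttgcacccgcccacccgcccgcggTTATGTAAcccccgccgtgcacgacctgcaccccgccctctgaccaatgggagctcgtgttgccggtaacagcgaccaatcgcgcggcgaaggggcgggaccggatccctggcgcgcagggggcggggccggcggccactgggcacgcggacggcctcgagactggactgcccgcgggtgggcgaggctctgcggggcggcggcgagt
Arntl: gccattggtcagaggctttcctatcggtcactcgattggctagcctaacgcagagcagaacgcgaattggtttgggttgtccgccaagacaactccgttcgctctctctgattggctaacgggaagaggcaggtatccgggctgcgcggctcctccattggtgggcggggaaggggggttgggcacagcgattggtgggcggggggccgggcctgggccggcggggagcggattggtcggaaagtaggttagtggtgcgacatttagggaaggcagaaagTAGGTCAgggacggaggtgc
Nfil3: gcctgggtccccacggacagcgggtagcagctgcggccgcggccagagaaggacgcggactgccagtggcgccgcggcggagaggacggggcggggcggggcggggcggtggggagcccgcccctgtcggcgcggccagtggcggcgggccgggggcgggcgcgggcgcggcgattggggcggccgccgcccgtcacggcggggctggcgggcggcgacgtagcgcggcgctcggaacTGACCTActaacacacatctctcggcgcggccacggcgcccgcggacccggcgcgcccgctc

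The window of Ciart holds the E-box 3 times and that of Per3 the D-box 2 times. Both genes with the ROR element rose (2.35 and 0.69). Of the 4 measured genes with an E-box, 3 were lower (Ciart, Tef and Per1) and Cry1 was higher; their median was -0.57, near the -0.61 of genes of the list whose window lacks it. These matches describe the letters of the windows and say nothing on binding in these livers.

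Genes of the integrated stress response, which ATF4 switches on when amino acids run short or the endoplasmic reticulum is strained, differed in both directions. Of 38 members, 6 were past 1.5-fold upward, against 8.07% of all genes, and 4 downward, against 6.08%. Enzymes of amino acid synthesis were among the raised members: Asns read 214 and 423 on chow and 111 and 452 on HFD, Psat1 of serine synthesis 12.7 and 17.0 on chow and 33.0 and 103 on HFD and Phgdh of the same route 32.6 and 55.6 on HFD, differences of 1.86, 1.48 and 0.60. The folate enzyme Mthfd2 and the proline enzyme Aldh18a1 rose by 0.90 and 0.61, at signals of 14.2 and 29.7 and 29.4 and 50.5. Under normexp these rises were 0.10 and 0.25. On chow Asns and Psat1 differed by 1.04 and 0.48, and Phgdh, Mthfd2 and Aldh18a1 had the opposite sign, -0.44, -0.23 and -0.21. The stress-induced regulator Nupr1 rose as well, by 0.85 at signals of 265 and 536. In the other direction Atf3 read 86.9 and 103 on chow and 1175 and 505 on HFD and fell by -1.39, and Ddit4, an inhibitor of mTORC1, the amino acid transporter Slc38a2 and the lyase Cth fell by -0.63, -0.61 and -0.78. The targets Chac1, Trib3, and the hormones Fgf21 and Gdf15 differed by -0.53, -0.21, -0.56 and -0.58. Atf4 itself (-0.02) and Ddit3 (0.31) were within 1.5-fold. The list median was -0.11.

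The C/EBP-ATF element TGATGNAA, which ATF4 binds, lay in the windows of 12 of the 34 genes of this list that had one, and in 3.97% of all windows on either strand. Asns, Atf3 and Chac1 are shown, at chr6:7693160-7693459 on the minus strand, chr1:191183284-191183583 on the minus strand and chr2:119350992-119351291 on the plus strand, since they hold the same element and differed in direction.
Asns: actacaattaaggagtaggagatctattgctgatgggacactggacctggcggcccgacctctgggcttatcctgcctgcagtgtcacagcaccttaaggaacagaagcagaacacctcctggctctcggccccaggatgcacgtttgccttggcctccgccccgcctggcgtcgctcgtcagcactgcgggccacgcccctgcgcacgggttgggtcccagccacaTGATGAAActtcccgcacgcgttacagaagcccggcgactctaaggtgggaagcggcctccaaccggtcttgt
Atf3: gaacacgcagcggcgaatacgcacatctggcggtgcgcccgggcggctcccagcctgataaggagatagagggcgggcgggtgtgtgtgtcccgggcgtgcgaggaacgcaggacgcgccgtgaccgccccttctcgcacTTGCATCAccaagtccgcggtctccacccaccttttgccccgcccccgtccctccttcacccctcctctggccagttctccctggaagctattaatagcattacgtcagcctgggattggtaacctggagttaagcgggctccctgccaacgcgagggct
Chac1: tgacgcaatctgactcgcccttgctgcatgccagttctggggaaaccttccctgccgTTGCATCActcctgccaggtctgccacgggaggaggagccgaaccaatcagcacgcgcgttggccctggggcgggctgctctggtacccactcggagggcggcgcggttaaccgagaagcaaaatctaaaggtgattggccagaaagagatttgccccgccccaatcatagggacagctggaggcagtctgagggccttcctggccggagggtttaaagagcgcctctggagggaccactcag

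Of the genes of this list with the element, 4 were higher and 6 lower in LKO, with a median of -0.36, against -0.06 for those whose window lacks it.

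Genes of the endoplasmic reticulum unfolded protein response had 26 of 36 members lower and a median of -0.20. The median of all genes was -0.18 at signals of 10000 or more, -0.09 from 1000 to 10000 and -0.003 from 100 to 1000. Some members, such as Derl3, lie in the dimmer classes. Derl3, of the pathway that removes misfolded proteins, read 207 and 111 on chow and 523 and 184 on HFD and fell by -1.68; Herpud1 and Sdf2l1 fell by -0.64 and -0.60. The main chaperone Hspa5 and the regulator Xbp1 differed by -0.19 and -0.00, and the sensor kinase Eif2ak3 rose by 0.61.

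NRF2 targets leaned the other way, 26 of 38 higher with a median of 0.16. Members past 1.5-fold were Akr1b7 (1.39, or 0.56 under normexp), Gpx2 (1.20, or 0.43), the carbonyl reductase Cbr3 at 0.92 and signals of 945 and 2006, and Osgin1 at 0.69. The classic targets Nqo1, Srxn1, Hmox1 and Gclm differed by 0.31, 0.41, 0.44 and -0.39, not past the fold.

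Immediate early genes divided. Egr1, Gadd45a, Gadd45g, Btg2, Jun, Fos, Ier2 and Zfp36 fell by -1.04, -1.16, -0.87, -0.87, -0.73, -0.67, -0.67 and -0.64, and on chow all but Jun (0.18) were lower in LKO as well. Myc, Cdkn1a, Klf6 and Ier5 rose by 1.09, 1.09, 0.87 and 0.63. Cdkn1a, a cell cycle inhibitor that p53 induces, read 1143 and 816 on chow and 876 and 2102 on HFD, and other p53 targets were mixed: Mdm2 differed by 0.01, Tnfrsf10b rose by 0.67 and Trp53inp1 fell by -0.84, around a list median of 0.03. Cell cycle genes had 35 of 45 members higher, 12 past 1.5-fold upward, against 8.07% of all genes, and a median of 0.27, with 0.24 on chow. Cyclin Ccnd1 and the replication helicase gene Mcm6 rose by 0.66 and 0.85 at signals of 1326 and 2360.4 and 637 and 1287, and Mki67, Top2a, Ccna2 and Ccnb1 by 0.61, 0.59, 0.72 and 0.67, from dim signals of which Mki67 had the highest, 93.8 and 161. Bub1 went the other way, at least 6.40-fold, from a signal of 52.9 to one not well above background. Which cells carried these transcripts was not tested.

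Secreted proteins of the hepatocyte were lower in part. Acute phase and major plasma proteins had a median of -0.21, which moved to -0.02 under quantile normalization, and the plasma carriers Alb, Hp, Hpx and Ttr differed by -0.16, -0.20, 0.02 and -0.43, Ttr by -0.97 on a dimmer probe. Serum amyloid A genes fell: Saa1 read 87832 and 142914 on chow and 78366 and 38529 on HFD, Saa2 144746 and 201872 on chow and 119418 and 67785 on HFD and Saa4 10423 and 9349.8 on chow and 7059.5 and 3430.5 on HFD, differences of -1.19, -0.98 and -1.21, where Saa1 and Saa2 are near identical and had 0.76 and 0.54 on chow. Orm3 and the antimicrobial peptide Leap2 fell by -1.06 and -0.89. Lcn2, Apcs and Fgb differed by 0.32, 0.42 and 0.10. Complement and coagulation genes had a median of -0.12, which turned to 0.01 under quantile normalization; C8g and Klkb1 fell by -0.86 and -0.67, and C6 rose by 0.67. C3 differed by -0.01.

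Among secreted hormones and cytokines, with a median of -0.15, the chemokine Cxcl13 read 855 and 197 on chow and 175 and 22.2 on HFD and fell by -3.14, next to -2.06 on chow. The hepatocyte-secreted Lect2 fell by -0.90 and the activin subunit gene Inhbc by -0.68, while Inhbe differed by -0.53. Follistatin (Fst), which binds activins, rose by 1.10 at signals of 102 and 246. Angptl4, Igfbp2 and Enho differed by -0.21, 0.06 and -0.58.

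Iron handling had a median of -0.07, with 0.04 under quantile normalization. Hepcidin (Hamp), the hormone of iron balance, read 25484 and 18554 on chow and 16834 and 20845 on HFD and differed by 0.14. Transferrin receptor Tfrc, the metal reductase Steap2 and the BMP targets Id3 and Id1 stood at 0.62, 1.51, 0.95 and 0.43; the first 3 are past the fold, and Steap2 read 65.9 and 75.3 on chow and 79.2 and 254 on HFD. Ferritin heavy chain Fth1 differed by -0.13.

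Transcription factors that define hepatocytes were not past the fold, Hnf4a at -0.01, Cebpa at -0.28, Foxa2 at 0.35 and Prox1 at -0.10, in a list with a median of -0.16. Of 48 members 2 rose past 1.5-fold, against 8.07% of all genes, the factor Sox9 and Afp, which fetal liver or bile duct cells make. Afp codes for alpha-fetoprotein and is not itself a transcription factor. The 5 that fell, against 6.08%, were nuclear receptors and metabolic factors: the mineralocorticoid receptor Nr3c2 by -0.82, Klf15 by -0.64, and Nr0b2, Nr1i3 and Ppara by -0.68, -0.63 and -0.62.

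Fetal and injury-associated hepatocyte genes had the highest list median, 0.46 on HFD and 0.14 on chow, with 38 of 42 members higher and 18 past 1.5-fold upward, against 8.07% of all genes. Tff3, a trefoil peptide, read 136 and 737 on chow and 146 and 1250.4 on HFD, a rise of 2.93 on HFD and 2.50 on chow. Ly6d, a surface antigen, read 242 and 269 on chow and 2706 and 11757 on HFD and rose by 1.95. The tubulin Tubb2b, the matrix-linked Itih5, galectin-3 (Lgals3), Sprr1a, alpha-fetoprotein (Afp) and annexins Anxa3 and Anxa5 rose by 1.67, 1.49, 1.08, 1.01, 0.91, 0.79 and 0.70. Sox9 and the imprinted H19 rose by 0.92 and 0.76, while Gpc3 and Spp1 differed by -0.15 and 0.16. The members lowered most, Krt23 and Ccn1, fell by -1.54 and -1.25. Several of these genes, Lgals3 and the annexins among them, are also made by macrophages or bile duct cells.

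Nuclear-encoded respiratory chain genes stood near the brightest genes on HFD. Of 74 members, 73 were lower and none past 1.5-fold in either direction. Their median of -0.16 was near the -0.18 of the brightest genes, and quantile normalization moved it to -0.03. On chow 71 members were higher, with a median of 0.12 beside 0.04 for the brightest genes. What part brightness had in these medians was not tested. Lysosome and autophagy genes were higher in 37 of 51 members, with a median of 0.13. Past the fold, Gpnmb read 1.76 and 7.70 on chow and 106 and 651 on HFD and rose by 2.45. Cd63 read 874 and 1083 on chow and 3206 and 10554 on HFD and rose by 1.55. Others past it included the proton pump subunit Atp6v0d2, the sulfatase Galns at 1.03 and the protease Ctss at 0.92. Gpnmb is also a macrophage marker, and macrophage markers had 21 of 23 members higher with a median of 0.77. What part macrophages had in the lysosome list was not tested. Calcium-binding genes had a median of -0.01, whose sign turned under normexp (0.02) and quantile normalization (0.04), and 1 extreme member: Cib3, of the calcium and integrin binding family, read 199.7 and 712 on chow and 254 and 5215 on HFD, an 18.3-fold rise on HFD and 1.89 on chow, beside 0.00 for Cib1 and -0.32 for Cib2. It was the most raised gene of all that were measured on both HFD arrays.

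Markers of other cells moved between both HFD livers as well. Summed over each list and divided by the 75th percentile of the array, hepatocyte markers read 6084 and 6235 on chow and 5115 and 4352 on HFD, 14 of 16 lower with a median of -0.25 (-0.06 under quantile normalization), none past 1.5-fold. Macrophage markers read 157 and 152 on chow and 221 and 309 on HFD, 21 of 23 higher and a median of 0.77, with Cd5l the most abundant. Trem2 and Itgax rose by 2.24 and 1.48, whereas Marco and Timd4, markers of resident Kupffer cells, fell by -1.64 and -0.95 while the Kupffer markers Vsig4 and Clec4f rose by 0.69 and differed by 0.31. Stellate cell markers summed to 140.3 and 149.8 on chow and 182 and 209 on HFD with Dcn most abundant and 17 of 18 higher, endothelial markers to 90.8 and 97.3 on chow and 115 and 119 on HFD with Aqp1 most abundant on HFD and 13 of 18 higher, and bile duct markers to 21.5 and 21.9 on chow and 25.9 and 29.5 on HFD with Spp1 most abundant on HFD and 12 of 16 higher.

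Lymphocyte markers summed to 23.3 and 20.8 on chow and 18.0 and 19.5 on HFD, most of it from the Cd4 probe, with 12 of 15 higher and a median of 0.89 (0.33 under normexp). Neutrophil markers summed to 75.3 and 68.1 on chow and 68.0 and 55.7 on HFD with Csf3r most abundant and 9 of 12 lower. Erythroid markers summed to 176 and 174 on chow and 349 and 177 on HFD, all 8 with a value lower and the alpha-globin probes, which cannot be told from each other, most abundant; their median was -0.97. Adipocyte markers summed to 589 and 599 on chow and 694 and 413 on HFD, with 9 of 16 higher and a median of 0.19 (0.05 under normexp). The most abundant of them were Car3 and Pck1, which hepatocytes make as well and which fell by -1.07 and differed by -0.49; Plin1, a defining marker of fat cells, stayed at background in both genotypes on HFD, and Adipoq and Lep read only 26.1 and 45.5 and 234 and 210.4. Exocrine pancreas markers summed to 66.4 and 42.4 on chow and 37.0 and 82.3 on HFD; all 23 with a value were higher on HFD with a median of 1.85 (1.25 under normexp), and Amy2a5 was the most abundant in LKO on HFD, by a probe at 2.04 beside another at -0.10. What part these markers' cells had in any list above was not tested.

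**Figure D4:**
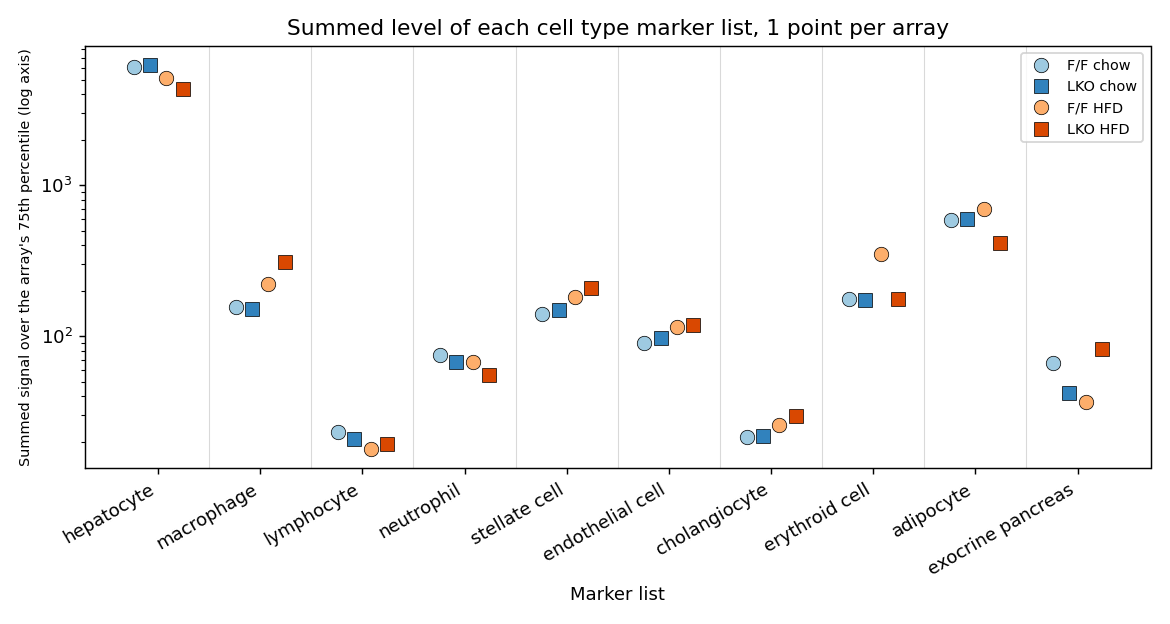
Summed signal of each marker list over the 75th percentile of the array, on a log axis, with 1 point for each of the 4 arrays. Between F/F and LKO on HFD the macrophage sum is higher in LKO (ratio 1.40) and so is the exocrine pancreas sum (ratio 2.22), while the erythroid and adipocyte sums are lower (ratios 0.508 and 0.595) and the hepatocyte sum is slightly lower (ratio 0.851).

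Of the 20 most raised and the 20 most lowered genes measured on both HFD arrays, 13 and 12 belonged to no list. Raised among them were Gipc2, an adaptor with a PDZ domain, at 10.7 and 15.5 on chow and 91.1 and 909 on HFD and an 8.88-fold rise, Epdr1, an ependymin-related secreted protein, at 39.9 and 386 on HFD and 8.62-fold, and the actin bundler Pls1 at 55.7 and 358 and 5.72-fold. On chow Gipc2 and Epdr1 read at most 15.7, and Pls1 7.98 and 24.0. Rragd, a GTPase that reports amino acids to mTORC1, read 30.4 and 36.3 on chow and 91.6 and 502 on HFD, a 4.88-fold rise. Tuba8, a tubulin, rose 4.90-fold and differed by 0.77 on chow. Tinag, Tenm4, Cxcl5, Fmr1nb, Rps6kl1, Vsig8, Hcn4 and Tceal5 completed the raised genes, between 4.81-fold and 8.26-fold; they are dim, and under normexp their log2 differences lay between 0.60 and 1.5034. Lowered were the glypican Gpc1 at 1215 and 1290.0 on chow and 5207 and 1039.7 on HFD and 5.63-fold, the laminin chain Lamb3 at 167 and 101 on chow and 452 and 77.5 on HFD and 6.56-fold, the kinase Aatk at 703 and 569.8 on chow and 1057 and 253 on HFD and 4.69-fold, and Lrtm1 at 382 and 245 on chow and 427 and 35.8 on HFD and 13.4-fold. For Gpc1 F/F on HFD was the high sample of the 4, and for Aatk and Lrtm1 LKO on HFD was the low one. The water channel Aqp4, the anion exchanger Slc26a4, Slc22a29, Grin3b, Gm12718, 1810046K07Rik, Enam and Cnmd fell between 4.52-fold and 12.3-fold, at F/F signals of 37.3 to 310.5 on HFD. Under normexp their log2 differences lay between -0.63 and -1.63, and further probes of Aqp4 gave -2.04 and -0.90. The order of these dim genes changed under normexp.

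On chow, 254 of the 366 genes at least 2-fold higher on HFD had a value, and 47 of these were at least 1.5-fold higher and 43 at least 1.5-fold lower in LKO there. Of the 296 genes at least 2-fold lower on HFD, 201 had a value on chow, 31 of them 1.5-fold lower and 21 higher. Over all 14981 genes with a chow value, 527 were 1.5-fold higher and 519 lower. The shares were 18.5% and 16.9% for the raised genes and 10.4% and 15.4% (higher and lower on chow) for the lowered ones, beside 3.52% and 3.46% of all genes, so genes past 2-fold on HFD lay past 1.5-fold on chow in both directions. These shares are not matched for brightness. Signals under 30 on HFD were those of 152 of the 366 raised and 156 of the 296 lowered genes, against 2581 of all 15528. What part dim signals had in the shares was not tested. Among the 20 most raised, 7 of 15 with a chow value were 1.5-fold higher on chow too, Cib3, Tff3 and Pls1 among them, and 3 were 1.5-fold lower. Among the 20 most lowered, 7 of 18 were 1.5-fold lower on chow and 1 higher.

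With 1 array per group, differences between individual mice, between collection times and between genotypes cannot be told apart. Other probes of the same genes gave a second reading: among 110 further probes of named genes past 1.5-fold, 3 had the opposite sign, those of Acacb, Slc43a1 and Amy2a5. Another probe had the same sign but was under 1.5-fold for Acaca, Amdhd1, Chpt1, Cyp4a31, Eif2ak3, Foxo3, Gstz1, Hsd17b13, Ido2 and Klb. The same held for Ppara, Prlr, Slc22a30, Slco1a1, Soat1, Sox9, Stard4, Tfrc and Ugcg. For Pck2 another probe gave a bound of 0.12. Processing ended some calls of 1.5-fold without turning a direction. Under normexp, besides genes whose value with it is given above, the rises of Adipoq (0.16), Ccna2, Ccnb1, Eif2ak3, Gdpd1, H19, Ier5, Lpcat2, Mki67, Pck2, Phgdh (0.19), Plcb2 (0.17), Slc16a1, Sox9, Tfrc, Tnfrsf10b and Top2a (0.17) and the falls of Apol9b, Bco2, Cry2, Cyp26a1, Cyp3a25, Fos, Foxo3, Herpud1, Ier2, Nr0b2, Nr1i3, Nr3c2, Pipox, Ppara, Sdf2l1, Sik1, Slco1a1, Srd5a2, Stard4 and Zfp36 were under 1.5-fold. Under quantile normalization this held for the rises of Aldh18a1, Phgdh and Top2a and the falls of Apoa4, Apol9b, Bdh1, Chpt1, Cry2, Cyp3a25, Cyp3a57, Ddit4, Gstz1, Herpud1, Klf15, Pipox, Ppara, Sdf2l1, Slc38a2, Slco1b2, Stard4, Tdo2, Thrsp and Zfp36, and with the 75th percentile taken over detected probes for the falls of Bdh1, Cry2, Cyp3a25, Gstz1, Ppara, Sdf2l1, Slc38a2, Stard4 and Tdo2. When the probes of each gene were averaged, it held for the rises of Acaca, Acacb, Eif2ak3, Hsd17b13, Pck2 and Tfrc and the falls of Chpt1, Gstz1, Klb, Ppara, Slc43a1, Slco1a1 and Stard4. Differences still past 1.5-fold under normexp, but over 1.5 times smaller in log2, were those of Atp6v0d2 (0.87), Bub1 (-0.72), Cxcl13 (-1.63), Cyp1a1 (-0.59), Epdr1 (1.91), Hsd3b5 (-1.74), Itih5 (0.90), Lrtm1 (-2.47), Myc (0.69), Psat1 (0.74), Slc13a5 (0.59), Slc43a1 (-0.67) and Tubb2b (0.81).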

How the data were processed

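Total liver RNA of 4 groups of mice, 1 sample each, was hybridized to 1-colour Agilent SurePrint G3 mouse arrays. The authors deposited scanner files from Agilent Feature Extraction 12.0.3.1, whose processed signal is a background-subtracted intensity, linear and not scaled between arrays. Non-control spots of a probe, without those the software marks as outliers, were averaged on the log2 scale, each array was centred on its 75th percentile over non-control spots, and LKO minus F/F was taken on HFD and on chow. A probe not well above background on 1 array of a pair was set no lower than the lowest signal counted as well above background there, which gives a bound. Of the probes, 33767 were matched to 23462 genes by RefSeq accession (GRCm38.p6), and the brightest probe stood for a gene. No test was made, since each group had 1 array. Lists are described by counts, 1.5-fold and 2-fold shares and medians.

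Named genes were Mboat7, the 20 most raised and 20 most lowered genes measured on both HFD arrays, list members marked as central to a function whatever their value, members past 1.5-fold, and the brightest or related members set beside them. The members and lists were chosen with earlier results of these data known. Some named genes are not reported here. Technical spread came from probes with at least 5 spots on an array. Alternatives were normexp with an offset of 50, quantile normalization and a percentile over detected probes. Others were a stricter filter, neither filter nor floor, the mean of probes and the deposited value table. Normexp was run on raw median spot and local background signals, so it changed the input signal as well as the correction. Steps were tested on simulated data. Python 3.11.15, numpy 2.4.6, pandas 2.3.3, matplotlib 3.10.9, R 4.3.3 and limma 3.58.1 were used.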

Additional observations from a re-analysis of the deposited data

Results flagged for a closer look

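Some values had opposite signs on the 2 diets, LKO minus F/F in log2, with 1 array per genotype on each diet. A list is given here when both medians lay further from 0 than the technical SD. A gene named above is given when both differences were past 1.5-fold. Genes not named above are left out, even where they meet that rule. The SD is that of a single probe's difference and leaves out spread between mice. For list medians, here and below, it serves only as a cut for what is listed. Each of these contrasts between diets was not tested, and neither was its cause.

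Lists with a lower median in LKO on HFD and a higher one on chow were lipid droplet and PPAR gamma genes (-0.17 and 0.10) and the nuclear-encoded respiratory chain (-0.16 and 0.12). Marker lists with a higher median on HFD and a lower one on chow were those of lymphocytes (0.89 and -0.19), bile duct cells (0.20 and -0.35) and exocrine pancreas (1.85 and -1.0039). By that rule 3 of these 5 lists would not be given under an alternative: lipid droplet genes (-0.0959, against an SD of 0.1036) and the respiratory chain (-0.03) on HFD with quantile normalization, and bile duct markers (0.09) on HFD with normexp.

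Genes higher in LKO on HFD and lower on chow were Socs3 (1.27 and -1.70), Socs2 (1.41 and -0.74), Cish (1.32 and -0.79), Pdk4 (0.87 and -1.0017), Acot2 (1.07 and -0.72), Chka (0.98 and -0.72) and Sox9 (0.92 and -0.74). Dim genes with the same signs were Gpx2 (1.20 and -0.83), Adipoq (0.63 and -1.05), Cxcl5 (2.43 and a bound of -1.37) and Tenm4 (2.63 and a bound of -1.60). Genes lower in LKO on HFD and higher on chow were Cidea (-1.60 and 3.20), G6pc (-1.24 and 0.69), Saa1 (-1.19 and 0.76), Apoa4 (-0.74 and 0.82) and Grin3b (-2.83 and 1.42).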

How the results depend on the processing

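Each value comes from 1 array per group, and no paired analysis was possible because each group has 1 array and its animals are not named. The deposited value table gave the same 4 counts, 48 list medians and 348 gene differences as the scanner files. Normexp, quantile normalization and the mean of probes could turn a direction, and with each of them all 243 named genes past 1.5-fold kept theirs. Of the 243, 193 were still past 1.5-fold with normexp, 220 with quantile normalization and 230 with the mean of probes. The other alternatives could not turn the direction of a gene past 1.5-fold. They kept its value, left it out, widened a bound or shifted all genes by the same small amount. Signal over background limits dim genes most, since normexp's offset shrinks their differences by construction. Genes with a bound have no value when both HFD arrays must pass.

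Counts moved as follows. With normexp, 94 genes were at least 2-fold higher and 85 lower, and 458 and 333 at 1.5-fold. Without a filter or floor more genes are counted by construction, 996 and 889 at 2-fold and 2356 and 2034 at 1.5-fold. With both arrays above background fewer are counted by construction, and 186 were 2-fold lower.

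Of 336 list medians under an alternative, 315 moved by less than the technical SD. Quantile normalization turned complement and coagulation from -0.12 to 0.0083 and moved fatty acid oxidation to -0.11, apolipoproteins to -0.10, glucose to -0.0558, pericentral genes to -0.25, periportal genes to -0.14, xenobiotic receptors to -0.17, conjugating enzymes to -0.0561, iron to 0.0372, acute phase proteins to -0.0228, the respiratory chain to -0.0314 and hepatocyte markers to -0.0614; the cause was not tested. Normexp moved steroid and thyroid genes to -0.43, the clock to -0.34, and markers of lymphocytes to 0.33, neutrophils to -0.14, bile duct cells to 0.0914, adipocytes to 0.0498 and exocrine pancreas to 1.25. The clock had -0.34 with neither filter nor floor, where dim members enter by construction. Lymphocyte markers had 0.76 with the mean of probes, and the cause of that move was not tested.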
